A study of Mus musculus with 6 samples.

Results

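Macrophage marker genes were examined in mouse hindlimb buds at E12.5 (strain label SV129). The 10 genes were chosen by name: the receptors Csf1r, Fcgr3, Cx3cr1 and Mrc1, the adaptor Tyrobp, the cytoskeletal protein gene Aif1, the complement genes C1qa, C1qb and C1qc, and the lysozyme gene Lyz2. Every probe of the bead array whose annotated symbol, current or former, belonged to the set was taken, which gave 13 of 25697 probes for 9 of the 10 genes. Csf1r, the receptor for the growth factor that macrophages need to survive, was not analysed here. The 3 knockout samples were labelled PITX1-/- and the 3 wild-type samples PITX1+/+, from embryos of Pitx1+/- matings genotyped by PCR of tail DNA. Both groups shared strain, age and tissue, and each sample was hybridised to its own Illumina bead array. Neither the deleted part of Pitx1 nor the number of embryos behind a sample is stated in the labels, so p-values measure the spread between samples, which may be technical.

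Tissue macrophages of the embryo arise largely from yolk sac progenitors, reach the limb bud with the circulation and engulf dying cells. They depend on signals through Csf1r, and the transcription factor PU.1 (gene Spi1) drives many of their genes. Pitx1 is a homeodomain factor of the hindlimb mesenchyme, and knockout is compared here with wild type for the macrophage transcripts of the bud.

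Each array gave an intensity per probe in arbitrary units, background-subtracted, so that values could lie below 0. A probe was called above background at more than 14.3 units, and 13535 to 13559 probes per array met this. Pitx1 itself averaged 76.5 ± 1.59 units in knockout and 139.6 ± 14.7 in wild type (SD, n = 3 each). Its log2 difference of -0.51 ± 0.09 (SE) passed in limma with an adjusted p of 0.038. Without wild-type replicate 3 no probe of the array passed, Pitx1 included. The same held with values under the background threshold set to it, in place of normexp and its offset. Knockout replicate 3 was the array least like the rest, at 22.3 on a first principal component that held 44.2% of the variance, with the other 5 arrays between -8.87 and 1.39. With 3 arrays per genotype, precision was limited throughout.

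The data showed no called difference in any macrophage marker between knockout and wild-type hindlimb buds. Of the 10 marker probes tested, 0 passed an adjusted p under 0.05 by limma, where 0.219% of all 13720 probes tested did. An unadjusted p under 0.05 was reached by 2 of the 10, those of Fcgr3 and C1qc, against 8.05% of all probes. Both had the knockout mean below the wild-type mean, as for 4.15% of all probes, and 0 had it above, as for 3.9%. The log2 fold change lay below 0 for 9 of the 10 probes, against 47.9% of all probes, with a median of -0.13 against 0.01 over all probes. The genotypes did not overlap, with knockout lower, for 2 of the 10 (Fcgr3 and 1 probe of Aif1), as for 6.58% of all probes, and for 0 of the 10 with knockout higher, as for 6.63%. Probes of markers that share a cell type are not independent of each other, so these counts are descriptions of the set.

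All 10 tested probes were above background on all 6 arrays, so none entered the test through 1 genotype alone. The other 3 probes, 1 of Aif1 and 2 of Lyz2, were not well above background on any array, at -7.90 to 0.82 units, and were not tested. In bulk tissue, a change in macrophage number, in RNA per macrophage or in other cells with these transcripts cannot be told apart.

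**Figure D1:**
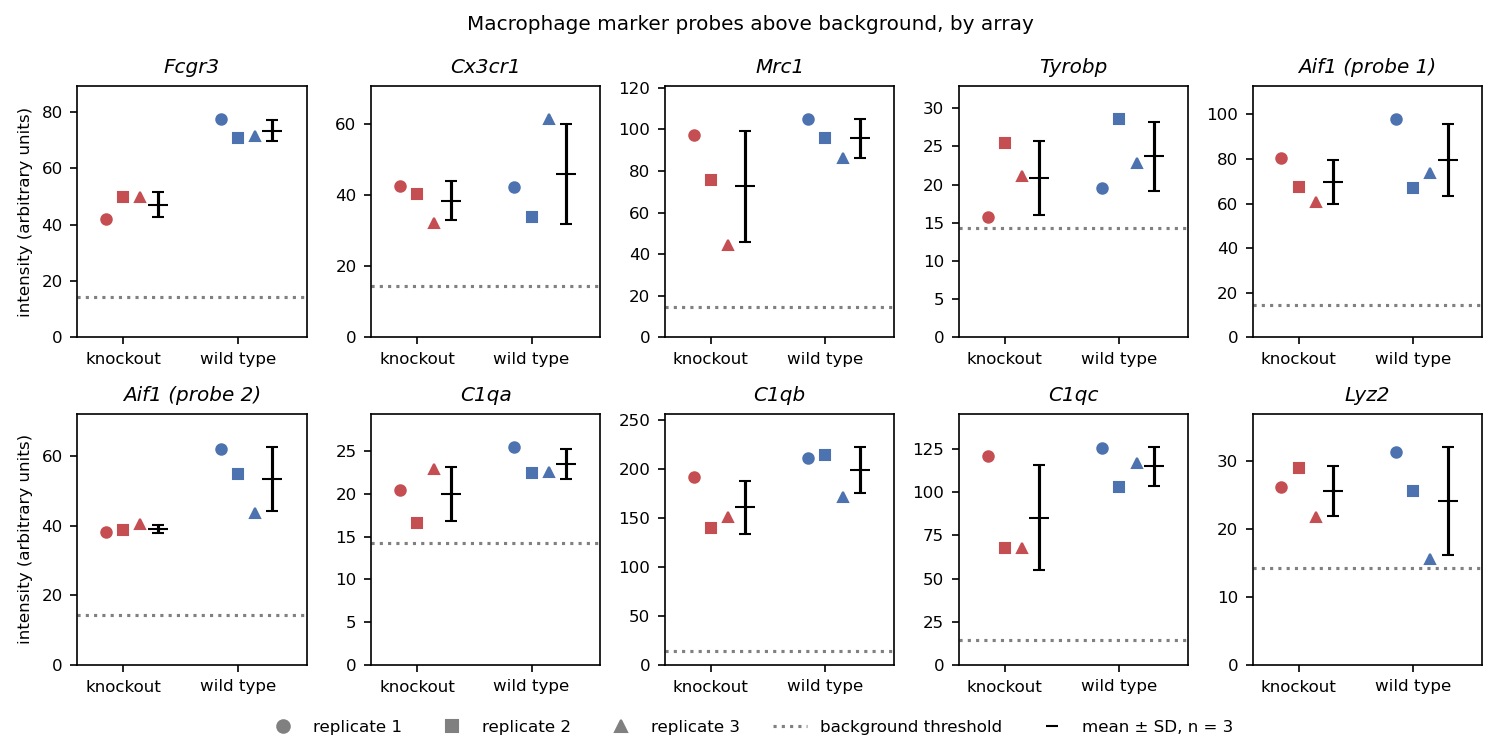
Intensity in arbitrary units (vertical axis, from 0) of the 10 macrophage marker probes above background, with knockout arrays (red) left of wild-type arrays (blue), 1 symbol shape per replicate number, the mean ± SD (n = 3) in black and the background threshold of 14.3 units dotted. The genotypes do not overlap for Fcgr3 and for probe 2 of Aif1, and Lyz2, C1qa and Tyrobp lie close to the threshold.

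The sequences just before the annotated transcript starts are shown for the 4 markers with the lowest fold changes, Fcgr3, C1qc, Mrc1 and C1qb, since PU.1 is known to bind purine-rich sites in promoters of macrophage genes. Each is the 250 bases upstream of the start in RefSeq on build GRCm38.p6, read 5′ to 3′ on the gene's strand, and 7 of the 10 markers had an entry. Capitals mark GAGGAA, the core of the PU.1 site, or TTCCTC, the same letters on the other strand. The Fcgr3 window is chr1:171059404-171059653 (minus strand) and lies wholly inside the annotated gene, which extends further upstream. The C1qc window is chr4:136892915-136893164 (minus strand), with 22 of its bases inside the annotated gene. The Mrc1 window is chr2:14229164-14229413 (plus strand), and the C1qb window is chr4:136886201-136886450 (minus strand).
Fcgr3: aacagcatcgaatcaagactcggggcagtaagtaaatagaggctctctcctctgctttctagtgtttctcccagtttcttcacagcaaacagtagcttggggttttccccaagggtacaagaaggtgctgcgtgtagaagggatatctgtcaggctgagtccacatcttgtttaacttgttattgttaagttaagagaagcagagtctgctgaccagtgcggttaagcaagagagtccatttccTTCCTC
C1qc: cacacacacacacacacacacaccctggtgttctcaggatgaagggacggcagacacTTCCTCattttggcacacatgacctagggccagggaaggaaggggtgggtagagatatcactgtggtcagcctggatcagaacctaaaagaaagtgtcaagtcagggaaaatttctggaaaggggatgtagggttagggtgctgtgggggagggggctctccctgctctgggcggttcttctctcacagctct
Mrc1: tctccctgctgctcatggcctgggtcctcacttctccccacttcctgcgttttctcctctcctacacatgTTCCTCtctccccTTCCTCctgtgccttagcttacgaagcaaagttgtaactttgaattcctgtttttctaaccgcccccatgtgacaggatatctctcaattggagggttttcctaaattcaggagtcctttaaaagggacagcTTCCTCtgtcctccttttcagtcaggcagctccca
C1qb: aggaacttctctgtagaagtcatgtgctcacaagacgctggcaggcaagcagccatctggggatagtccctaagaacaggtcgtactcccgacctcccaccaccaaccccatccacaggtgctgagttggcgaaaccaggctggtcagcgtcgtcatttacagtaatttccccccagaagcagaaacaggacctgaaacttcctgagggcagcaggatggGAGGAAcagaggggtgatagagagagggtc

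A match to these 6 letters on either strand was found in 5 of the 7 windows, those of the 4 genes above and of Aif1, and in 23.3% of all 32851 such windows in the table. The windows of Cx3cr1 and Lyz2 held none. The match in Fcgr3 began 6 bases before the start, and that of Aif1 began 7 bases before it. In C1qb the match began 30 bases before the start and in C1qc 193 bases, and Mrc1 held 3, at 180, 167 and 35 bases. A match is a description of the letters and shows no binding.

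Among the receptors, Fcgr3 had the smallest p of the set. It encodes the low-affinity activating receptor for IgG and lies on chromosome 1 (171051169 to 171065915, GRCm38.p6). Its probe gave 42.0, 49.7 and 49.7 units in knockout replicates 1, 2 and 3, against 77.7, 71.0 and 71.5 units in wild-type replicates 1, 2 and 3. Every knockout value lay below every wild-type value, and the spread within each genotype was small beside the gap. The means were 47.1 ± 4.45 in knockout and 73.4 ± 3.72 in wild type (SD, n = 3 each), a ratio of 0.642. On the log2 scale after the offset of 50 units, which understates the fold of dim probes, the difference was -0.29 ± 0.09 (SE, 95% interval -0.47 to -0.10). It missed the threshold over all probes (limma adjusted p = 0.35, unadjusted 0.0057). With values under the background threshold set to it, in place of normexp and its offset, the log2 fold change was -0.64 (adjusted p = 0.34). With any 1 array left out the unadjusted p was 0.0063 to 0.025 and the adjusted p 0.20 to 0.91.

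Fcgr3 has close relatives in the same cluster, which a probe may not tell apart, and cross-hybridisation was not tested. Fcgr2b, the inhibitory IgG receptor, had 1 tested probe of 3, at 10.2, 7.03 and 16.2 units in knockout and 21.8, 20.6 and 14.7 units in wild type. This probe was above background on 1 knockout array and 3 wild-type arrays, the genotypes overlapped, and it did not pass (log2 fold change -0.13 ± 0.09 SE, limma adjusted p = 0.74). The single probe of Fcgr4, another activating receptor, was not well above background on any array, with 9.35 units as its highest value. The probe of Fcer1g, the signalling chain that Fcgr3 needs at the cell surface, was also not well above background on any array.

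Mrc1 encodes the mannose receptor, which takes up glycoproteins and marks tissue-resident macrophages, and lies on chromosome 2 (14229414 to 14332023). It gave 97.4, 75.9 and 44.4 units in knockout replicates 1, 2 and 3, against 105.1, 95.8 and 86.4 units in wild-type replicates 1, 2 and 3. Knockout replicate 1 lay within the wild-type range, and knockout replicate 3 was far below all other arrays. The means of 72.6 ± 26.6 in knockout and 95.8 ± 9.36 in wild type (SD, n = 3 each) differed by -0.23 ± 0.12 on the log2 scale (SE, 95% interval -0.49 to 0.04, limma adjusted p = 0.67). Without knockout replicate 3 it was -0.08 (adjusted p = 0.999).

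Cx3cr1, the receptor for the chemokine fractalkine, lies on chromosome 9 (120048683 to 120068296). Its intensities were 42.7, 40.4 and 32.2 units in knockout and 42.4, 33.9 and 61.5 units in wild type. The genotypes overlapped, and wild-type replicate 3 was the high value. The log2 fold change was -0.09 ± 0.10 (SE, 95% interval -0.31 to 0.13, limma adjusted p = 0.84), and without wild-type replicate 3 it was 0.0046 (adjusted p = 0.999). Without knockout replicate 3 it was -0.047.

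The complement genes C1qa, C1qb and C1qc encode the 3 chains of C1q, the recognition part of the first complement component, which macrophages secrete and which also tags dying cells for uptake. They lie side by side on chromosome 4 (136880126 to 136898844 from the start of C1qb to the end of C1qa). C1qc gave 120.6, 67.7 and 67.5 units in knockout replicates 1, 2 and 3, against 125.4, 102.8 and 116.7 units in wild-type replicates 1, 2 and 3. Knockout replicates 2 and 3 lay far below all other arrays, and knockout replicate 1 lay within the wild-type range. The log2 fold change was -0.26 ± 0.12 (SE, 95% interval -0.53 to -0.00052, limma adjusted p = 0.62, unadjusted 0.050). Without knockout replicate 1 it was -0.42 (adjusted p = 0.12), and with array weights it was -0.14 (adjusted p = 0.77).

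C1qb gave 191.4, 139.7 and 150.4 units in knockout replicates 1, 2 and 3, against 210.6, 214.4 and 171.5 units in wild-type replicates 1, 2 and 3. As for C1qc, knockout replicate 1 was the highest knockout array and overlapped the wild-type range. The log2 fold change of C1qb was -0.22 ± 0.11 (SE, 95% interval -0.45 to 0.01, limma adjusted p = 0.63). C1qa was dim, at 20.5, 16.7 and 22.9 units in knockout and 25.6, 22.4 and 22.6 units in wild type. Its log2 fold change was -0.05 ± 0.09 (SE, 95% interval -0.24 to 0.13, adjusted p = 0.89). It was -0.08 with an offset of 16 and -0.24 with values under the background threshold set to it and no normexp step.

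The mean log2 level of the 3 C1q probes, relative to the wild-type mean, was -0.01, -0.29 and -0.24 in knockout replicates 1, 2 and 3, and 0.06, -0.01 and -0.05 in wild-type replicates 1, 2 and 3. On this mean knockout replicate 1 lay inside the wild-type range and the other 2 knockout arrays below it, as for C1qb and C1qc. For C1qa it was knockout replicate 3 that lay inside that range, and knockout replicate 1 lay below it. Across the 6 arrays the 3 chains were positively correlated, with Pearson's r of 0.54 to 0.82. These correlations are descriptions over 6 arrays that include the genotype difference.

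Aif1 encodes Iba1, the calcium-binding actin regulator used as a histological stain for macrophages and microglia, on chromosome 17 (35170986 to 35176083). Its brightest probe gave 80.3, 67.6 and 60.8 units in knockout and 98.1, 67.1 and 73.7 units in wild type, with the genotypes overlapping (log2 fold change -0.09 ± 0.10 SE, limma adjusted p = 0.83). That value was -0.050 without knockout replicate 3 and -0.0097 without wild-type replicate 1, the high array. A second probe gave 38.2, 38.6 and 40.5 units in knockout and 62.0, 54.7 and 43.5 units in wild type. Here every knockout value lay below every wild-type value, although wild-type replicate 3 was close to the knockout arrays. Its log2 fold change was -0.17 ± 0.09 (SE, 95% interval -0.37 to 0.03, limma adjusted p = 0.66). Both tested probes of Aif1 thus had a fold change below 0, and neither passed.

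Tyrobp encodes DAP12, the adaptor through which several myeloid receptors signal, on chromosome 7 (30413782 to 30417582). It was dim, at 15.8, 25.5 and 21.1 units in knockout and 19.6, 28.6 and 22.9 units in wild type, and the genotypes overlapped. The log2 fold change was -0.04 ± 0.09 (SE, 95% interval -0.24 to 0.15, limma adjusted p = 0.92).

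Lyz2, the lysozyme of macrophages and neutrophils, lies on chromosome 10 (117277541 to 117282272) and was the one marker with a fold change above 0. Its tested probe gave 26.1, 28.9 and 21.7 units in knockout and 31.3, 25.5 and 15.6 units in wild type, so the knockout values lay inside the wild-type range. The log2 fold change was 0.02 ± 0.09 (SE, 95% interval -0.18 to 0.23, limma adjusted p = 0.96), and without wild-type replicate 3 it was -0.04. The neighbouring paralog Lyz1, best known from Paneth cells of the gut, had 1 tested probe of 3, at 170.9, 138.5 and 145.1 units in knockout and 185.0, 127.8 and 154.6 units in wild type (log2 fold change -0.02 ± 0.11 SE, adjusted p = 0.97). The other probes of Lyz1 were below 0 on all 6 arrays. Probe sequences were not used, and which of the paralogs these probes read was not tested.

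**Figure D2:**
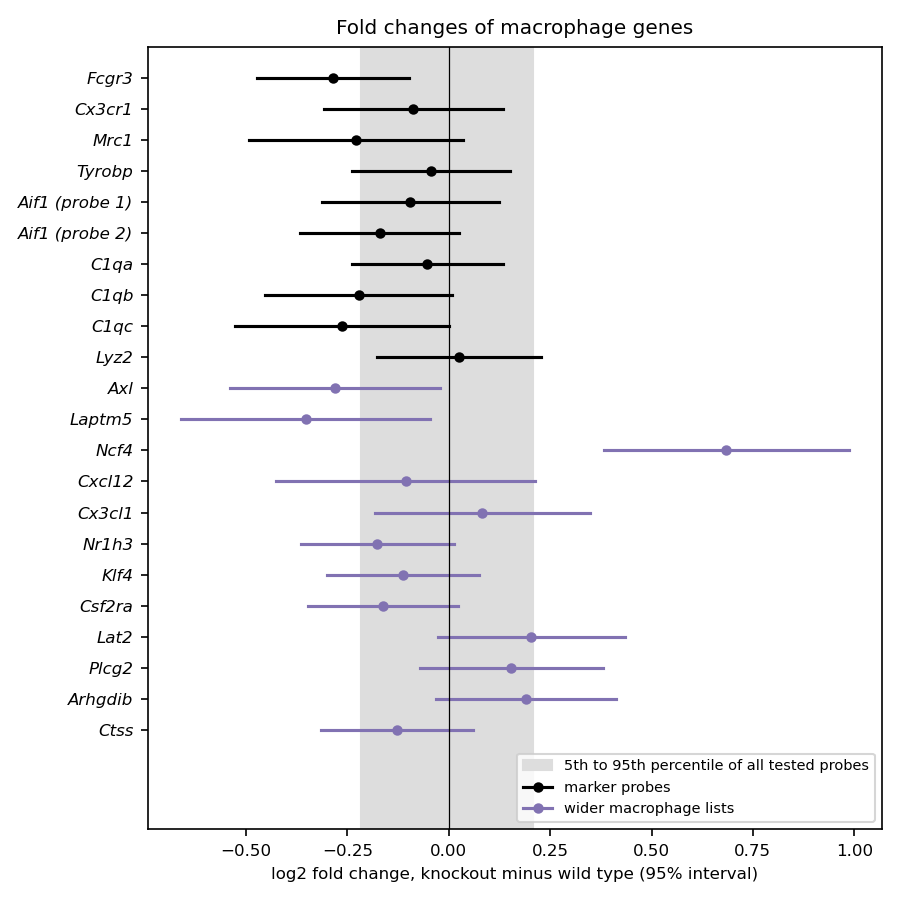
Log2 fold change, knockout minus wild type (horizontal axis), with its 95% interval, for the 10 macrophage marker probes (black) and 12 genes of the wider macrophage lists (purple), over a grey band from the 5th to the 95th percentile of all tested probes (-0.22 to 0.21). The points of Fcgr3, Mrc1, C1qb, C1qc, Axl and Laptm5 lie left of the band, and Ncf4 lies far to its right.

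Within the set, the markers varied together only in part. Of the 45 pairs among the 10 probes, 32 had a positive Pearson's r over the 6 arrays, with a median of 0.39 and a range of -0.54 to 0.85. The highest belonged to Fcgr3 and the second probe of Aif1, and the lowest to Cx3cr1 and Lyz2. Wild-type replicate 1 held the highest value for 7 of the 10 probes, and no knockout array held the highest value of any. The lowest value was on knockout replicates 1, 2 and 3 for 3, 2 and 4 probes and on wild-type replicate 3 for 1.

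The mean log2 level of the 10 probes relative to the wild-type mean was -0.07, -0.16 and -0.21 in knockout replicates 1, 2 and 3, and 0.06, -0.02 and -0.04 in wild-type replicates 1, 2 and 3. All 3 knockout arrays thus lay below all 3 wild-type arrays, by a margin between knockout replicate 1 and wild-type replicate 3 that was smaller than the spread within either genotype. The median fold change of -0.13 was -0.08 without knockout replicate 3, and -0.28 with values under the background threshold set to it and no normexp step.

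The levels of other cell types differed across the same arrays. By limma adjusted p under 0.05, 9 of 13 tested genes of the muscle list fell, 2 of 12 of the erythroid list rose and 0 of 7 of the megakaryocyte list passed, where 0.273% of all genes tested passed (1 probe per gene). An unadjusted p under 0.05 with knockout higher was reached by 9 of the 12 erythroid and 2 of the 7 megakaryocyte genes, where 3.65% of all genes did. With knockout lower it was reached by 12 of the 13 muscle genes, where 4.85% of all genes did. The muscle list (13 of 14 genes tested) had summed intensities of 2565 to 8826 units in knockout and 15902 to 19867 units in wild type, and it was lowest on knockout replicate 3. The erythroid list (12 of 14 tested) summed to 198449 to 211941 units in knockout and 181303 to 193201 units in wild type. The globins Hbb-y, Hba-a1, Hba-x and Hbb-bh1 dominated this sum, with knockout means of 60125, 55268, 50787 and 29789 units. Their log2 fold changes were 0.02, -0.06, 0.26 and 0.54. The megakaryocyte list (7 of 10 tested) summed to 471.5 to 943.8 units in knockout and 419.97 to 509.5 units in wild type. The mean log2 levels of the muscle list relative to the wild-type mean were -0.84, -1.10 and -2.05 in knockout replicates 1, 2 and 3, so its order over the knockout arrays was that of the macrophage markers. For the erythroid list they were 0.27, 0.42 and 0.55, and for the megakaryocyte list 0.01, 0.31 and 0.51, the opposite order. Their part in the macrophage values was not tested.

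Endothelial genes (11 of 13 tested), some of which macrophages and lymphatic vessels share, summed to 4772 to 5414 units in knockout and 5192 to 5292 units in wild type, with a median log2 fold change of -0.01. Limb mesenchyme genes (8 of 9 tested) summed to 11428 to 12859 units in knockout and 11691 to 12112 units in wild type. Of these 8, 0 passed an adjusted p under 0.05 by limma, where 0.273% of all genes did. Tbx4 (log2 fold change -0.51) reached an unadjusted p under 0.05 with knockout lower, as did 4.85% of all genes. Prrx1, Hoxd10 and Hoxc10 (0.28, 0.31 and 0.22) reached it with knockout higher, as did 3.65%. Of the neutrophil and mast cell markers 3 of 14 were tested, and of the lymphoid markers 1 of 10. Prtn3, a protease of neutrophil granules, was bright on all 6 arrays, at 172.4, 182.9 and 177.8 units in knockout and 120.3, 165.4 and 157.1 units in wild type (log2 fold change 0.19 ± 0.10 SE, limma adjusted p = 0.66). The other tested genes, Elane, Csf3r and Cd79b, reached at most 29.8, 27.1 and 43.8 units. The 3 neutrophil and mast cell genes summed to 206.5 to 221.2 units in knockout and 159.4 to 210.6 units in wild type. S100a8, Mpo, Fcer1a, Camp, Ltf and Cpa3, and the lymphoid genes Ms4a1, Il7r and Cd3e, exceeded the background threshold on too few arrays to be tested, at up to 33.3 units (Mpo) and 29.4 units (Ms4a1). S100a9, Ngp, Ctsg, Gzmb, Retnlg, Cd3g, Cd79a, Cd2 and Nkg7 were not well above background on any array. The part of these cells in the macrophage values was not tested.

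**Figure D3:**
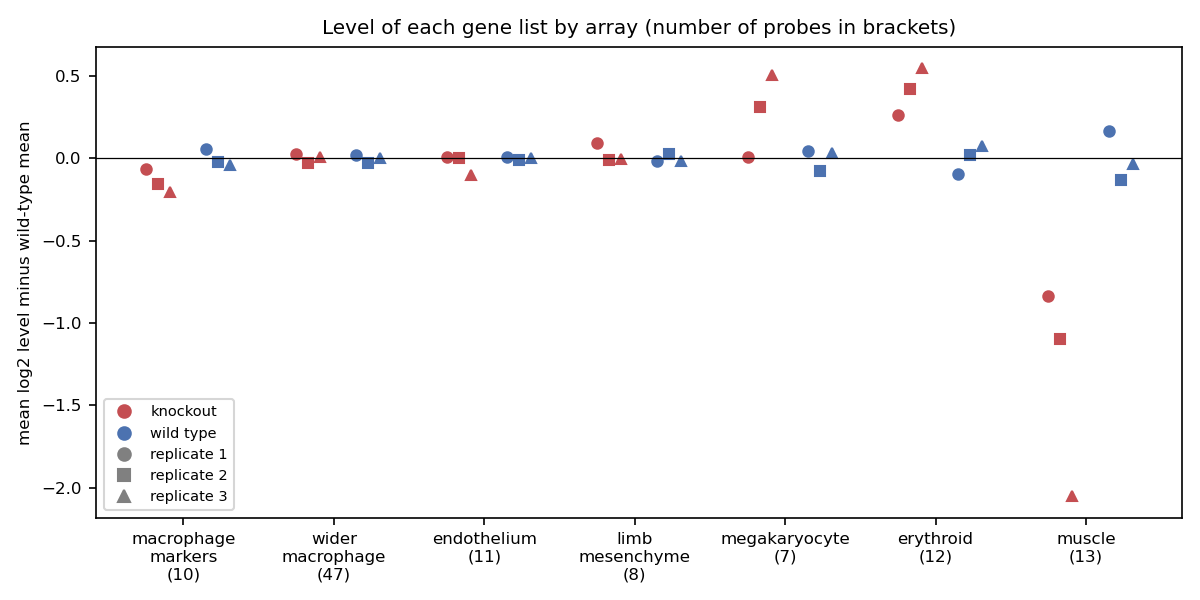
Mean log2 level of each gene list minus its wild-type mean (vertical axis), 1 point per array, knockout (red) left of wild type (blue), symbol shape by replicate number. The macrophage markers lie between -0.21 and 0.06, while the muscle list reaches -2.05 and the erythroid list 0.55, both on knockout replicate 3.

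Beyond the marker set, 113 other genes with roles in or around macrophages were listed. Not all are restricted to macrophages, Cxcl12 and Klf4 among them, and the part of macrophages in their values was not tested. Of these 103 had a named probe, and 47 were tested, while 45 were not above background on any array. Several genes that define macrophages were among the latter, namely Adgre1 (the F4/80 antigen), Spi1 (PU.1), Itgam (CD11b), Ptprc (CD45, on all leukocytes) and the scavenger receptors Cd163 and Msr1. Their highest values were 13.2, 9.25, 0.69, 11.2, 4.54 and -4.36 units. The 10 tested marker probes, and Cd14, Stab1 and Ctss of these lists, were above background on all 6 arrays beside these undetected defining genes. Both growth factors that bind Csf1r, encoded by Csf1 and Il34, were also not well above background on any array, with highest values of 8.26 and 1.05 units.

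Of the 47 genes tested, 0 passed an adjusted p under 0.05 by limma, where 0.273% of the 9539 genes tested did (1 probe per gene). An unadjusted p under 0.05 was reached by 2 with knockout lower (Axl and Laptm5), where 4.85% of all genes did, and by 1 with knockout higher (Ncf4), where 3.65% did. Without knockout replicate 3 neither Axl nor Laptm5 reached it (unadjusted 0.19 and 0.14). A log2 fold change below 0 was seen for 22 of the 47, against 50.2% of all genes, and the median was 0.01. The genotypes did not overlap, with knockout lower, for 4 genes, against 7.32% of all genes, and with knockout higher for 1, against 6.5%.

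**Figure D4:**
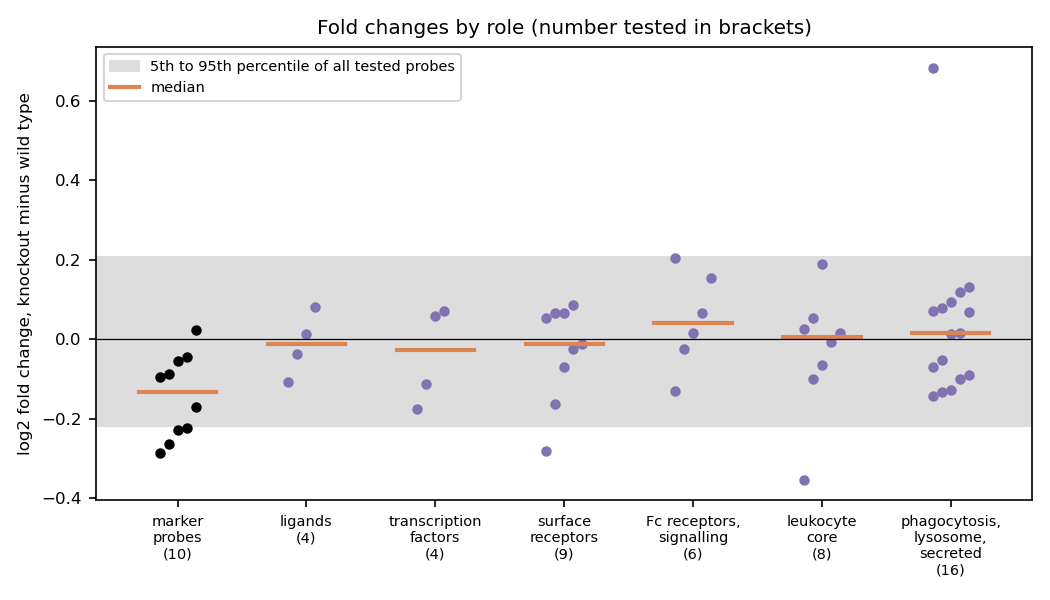
Log2 fold change, knockout minus wild type (vertical axis), of each tested macrophage marker probe (black) and each tested gene of the wider lists (purple), grouped by role with the number tested in brackets, medians in orange and the 5th to 95th percentile of all tested probes (-0.22 to 0.21) in grey. The marker probes have a median of -0.13, and the medians of the wider lists lie between -0.03 and 0.04.

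Of the 8 ligands 4 were tested, with 2 on each side of 0 and none past the threshold. Cx3cl1, the ligand of Cx3cr1, gave 59.8, 32.1 and 38.2 units in knockout and 51.8, 19.3 and 40.9 units in wild type (log2 fold change 0.08 ± 0.12 SE, limma adjusted p = 0.88), and it was -0.02 without knockout replicate 1 and -0.04 without wild-type replicate 2. Cxcl12, a chemokine of mesenchyme, averaged 2127 units in knockout and 2251 in wild type (log2 fold change -0.11 ± 0.15 SE, adjusted p = 0.87), and it was 0.10 without knockout replicate 3. Of the 12 transcription factors 4 were tested, again with 2 on each side of 0. Nr1h3, the lipid-sensing nuclear receptor LXR alpha, gave 33.7, 33.2 and 26.0 units in knockout and 44.4, 41.7 and 47.1 units in wild type, with no overlap (log2 fold change -0.18 ± 0.09 SE, adjusted p = 0.64). Klf4, also a factor of skin and vessels, gave 13.01 to 18.1 units in knockout and 19.6 to 25.3 units in wild type, also with no overlap (log2 fold change -0.11 ± 0.09 SE, adjusted p = 0.76), and the fold change of the mean over its probes was 0.0099.

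Of the 35 surface receptors 9 were tested, 5 with a fold change below 0 and none past the threshold. Axl, a receptor for the bridge protein Gas6 in the uptake of dying cells, gave 2266, 2096 and 1600.3 units in knockout and 2548, 2215 and 2467 units in wild type. Knockout replicate 1 overlapped the wild-type range (log2 fold change -0.28 ± 0.12 SE, limma adjusted p = 0.60), and without knockout replicate 3 the value was -0.14. Its relative Mertk averaged 516.8 units in knockout and 482.3 in wild type (log2 fold change 0.09 ± 0.10 SE, adjusted p = 0.85). Csf2ra, a chain of the GM-CSF receptor, averaged 147.8 ± 4.23 units in knockout and 174.2 ± 6.93 in wild type (SD, n = 3 each), with no overlap (log2 fold change -0.16 ± 0.09 SE, adjusted p = 0.66).

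Among 14 Fc receptor and signalling genes 6 were tested, and 2 of them had a fold change below 0. Lat2 and Plcg2, which act downstream of immune receptors, gave log2 fold changes of 0.20 ± 0.11 and 0.15 ± 0.10 (SE, limma adjusted p = 0.66 and 0.73), and that of Plcg2 was 0.048 without knockout replicate 3. Of 13 leukocyte genes 8 were tested, 4 on each side of 0. Laptm5, a lysosomal membrane protein of blood cells, gave 625.2, 524.6 and 401.9 units in knockout and 774.3, 545.4 and 714.2 units in wild type, with knockout replicate 1 inside the wild-type range (log2 fold change -0.35 ± 0.14 SE, adjusted p = 0.56), and without knockout replicate 3 the value was -0.20. Arhgdib gave a log2 difference of 0.19 ± 0.10 (SE, adjusted p = 0.67).

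Of 31 genes of phagocytosis, lysosomes and secretion 16 were tested, 7 with a fold change below 0. Ncf4, a subunit of the NADPH oxidase of phagocytes, had the largest fold of the wider lists, at 422.4, 443.2 and 669.2 units in knockout and 245.5, 291.8 and 321.9 units in wild type. Every knockout value lay above every wild-type value, and the log2 fold change of 0.68 ± 0.14 (SE, 95% interval 0.38 to 0.99) missed the threshold over all probes (limma adjusted p = 0.077). It passed without knockout replicate 1 (0.79, adjusted p = 0.031) and did not pass with any other array left out (adjusted p of 0.074 to 0.43). The probes of its partner subunits Cybb and Ncf1 lay below 0 on all 6 arrays. Another partner subunit, Cyba, was bright, at means of 1279 units in knockout and 1369 in wild type (log2 fold change -0.10 ± 0.10 SE, limma adjusted p = 0.82). Ctss, a cathepsin of macrophage lysosomes, gave 20.1, 18.9 and 22.3 units in knockout and 33.6, 25.6 and 28.4 units in wild type, with no overlap (log2 fold change -0.13 ± 0.09 SE, adjusted p = 0.73).

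The 5 probes outside the lists whose log2 levels were most like the mean of the 10 macrophage marker probes over the 6 arrays were those of Fndc10, Rrbp1, Aplnr, Bcl2 and Tiam1, with Pearson's r of 0.98 to 0.99. They were picked as the highest among the tested probes with a gene symbol outside the lists, so the likeness is a description. On the marker mean every knockout array lay below every wild-type array, so lower knockout levels of these 5 follow from the pick. Aplnr, the apelin receptor, gave 294.2, 266.1 and 225.0 units in knockout and 401.9, 353.6 and 339.3 units in wild type (log2 fold change -0.39 ± 0.10 SE, limma adjusted p = 0.22). Rrbp1, a ribosome-binding protein of the endoplasmic reticulum, averaged 109.7 ± 15.7 units in knockout and 152.2 ± 9.35 in wild type, and Bcl2, an inhibitor of cell death, averaged 27.2 ± 7.06 in knockout and 38.8 ± 4.34 in wild type (SD, n = 3 each). Fndc10, a membrane protein with a fibronectin domain, averaged 929.3 ± 195.9 units in knockout and 1238 ± 143.9 in wild type, and Tiam1, an activator of Rac, averaged 1447 ± 53.6 in knockout and 1526 ± 29.2 in wild type. None of the 5 passed the threshold over all probes (limma adjusted p of 0.22 to 0.85).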

How the data were processed

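Total RNA was labelled as biotinylated cRNA, per the labels' protocols. The deposited table holds linear intensities, background-subtracted, of which 27.9% lie below 0. Its 6 sorted columns differ by at most 1.09 units, as after quantile normalization, although no label records that step. The sources used here name no scanner software or normalization. The 12 columns of a second deposited table carry running numbers that match no sample and were not used. Intensities were corrected with normexp at an offset of 50 and log2-transformed, using limma 3.58.1 in R 4.3.3. The background threshold was 1.64 times the root mean square of values below 0 (8.71 units), and a probe had to exceed it on 3 of the 6 arrays or more to enter lmFit and eBayes (knockout minus wild type, two-sided, Benjamini-Hochberg over 13720 probes). The test was tried on simulated data.

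Symbols were read from the platform annotation in GEO and updated by Entrez identifier to GRCm38.p6 symbols. Of 25697 probes, 23978 had 1 symbol, 0 several and 1719 none, and 23962 matched. The brightest tested probe stood for a gene in the wider lists. Genes named there had an unadjusted p under 0.05, or were the 2 with the smallest p in their list where fewer than 2 did. The markers and lists were chosen with earlier results of these data known. Genes named for other roles (such as undetected defining markers, Mertk, Fcer1g, Cybb, Ncf1 and Cyba) were chosen after their values were seen. No pair of arrays was identical (Pearson's r of 0.992 to 0.996). The alternatives changed the background step, offset, normalization, filter, variance model, array weights, replicate block and probe summary, and left out each array in turn. Figures used matplotlib 3.10.9.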

Additional observations from a re-analysis of the deposited data

How the results depend on the processing

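No marker probe passed an adjusted p under 0.05 by limma in any of the 15 alternatives run, where 1 to 4 had an unadjusted p under 0.05. That number was 2 with all arrays, 4 without knockout replicate 1, 3 without wild-type replicate 3 and 1 without any other single array. The median log2 fold change of the marker probes was -0.28 with values under the background threshold set to it in place of normexp and its offset, and -0.17 to -0.08 with 1 array left out. The count over all probes was 30. It was 0 in that setting (951 at an unadjusted p under 0.05), 8 with an offset of 16, 49 with an intensity trend, and 0 to 91 with 1 array left out, the 0 being without wild-type replicate 3 (710 unadjusted). The cause was not tested. The count of called genes in the wider lists was 0 to 1 with 1 array left out, the 1 being Ncf4 without knockout replicate 1. Fold changes turned for Cx3cr1 and Lyz2 without wild-type replicate 3, Cxcl12 without knockout replicate 3, and Cx3cl1 without knockout replicate 1 (-0.017) or wild-type replicate 2. With 1 array left out Cx3cr1 ran from -0.16 to 0.0046, Lyz2 from -0.040 to 0.077, Cxcl12 from -0.25 to 0.10 and Cx3cl1 from -0.041 to 0.18. As a mean over probes Klf4 turned to 0.0099. None of these was called in any setting.

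The genotypes share replicate numbers with no stated meaning, and same-numbered arrays deviated together with correlations of 0.23, 0.17 and -0.07, so the numbers are not taken as pairs. With a replicate block 84 probes passed, among them 1 gene of the wider lists (Ncf4, adjusted p = 0.0045) and 0 marker probes, 4 of which had an unadjusted p under 0.05. Probes near 14.3 units, such as those of C1qa, Tyrobp and Lyz2, limit what these arrays can show.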
